A study of Mus musculus with 26 samples.

Results

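The genes described here are 35 named members of glycolysis and of the transcriptional response to low oxygen, chosen by gene symbol from count tables of 3 kinds of sample. They make up 35 of 40481 genes in each of the mouse tables and 35 of 55093 genes in the human table, where GPI, CA9 and ERO1A stand for Gpi1, Car9 and Ero1l. All 35 passed the filter on low counts in each table. Of the members, 13 are glycolytic enzymes, 6 handle pyruvate and lactate or regulate the pathway, 4 are subunits of hypoxia-inducible factor (HIF) or the prolyl hydroxylases that control it, and 12 are genes known as HIF targets.

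Glycolysis splits glucose into pyruvate in the cytosol, and lactate dehydrogenase turns pyruvate into lactate when it is not passed to mitochondria. HIF is a transcription factor whose alpha subunit is hydroxylated by prolyl hydroxylases and destroyed while oxygen is plentiful; when oxygen is short it accumulates and raises the transcription of most glycolytic enzymes together with angiogenic, pH-regulating and mitophagy genes. The intestinal epithelium lives under a steep oxygen gradient from the vascularised crypt base to the nearly anoxic lumen, and its proliferating crypt cells are known for high glycolytic activity. HIF itself is controlled mainly at the level of protein, which RNA counts do not measure.

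The 26 samples compared loss of Fgfr1op, which encodes a protein of the centrosome, with controls. Spheroids, which are epithelial cultures of mouse small intestine in Matrigel with L-WRN conditioned medium, were labelled Fgfr1op KO or WT at day 3 after hydroxytamoxifen, with 4 mice in each group. Small intestinal crypts released with EDTA were labelled Fgfr1op KO or WT at days 6 and 9 after tamoxifen, with 3 mice per genotype and day. Caco-2 cells, which come from a human colon cancer and can take on features of enterocytes, carried a single inducible lentiviral hairpin, either shFgfr1op or scramble, and were taken 3 days after doxycycline, with 3 samples of each. The KO and WT mouse groups share the tamoxifen or hydroxytamoxifen timing, and the Caco-2 groups share vector and doxycycline. The Cre driver, the deleted part of Fgfr1op and any allele carried by the WT mice are not given in the sources used here. The crypt columns carried genotype, a running number and a further number of unstated meaning, but no day. Both days were therefore pooled within a genotype. Whether the Caco-2 samples were separate cultures is not stated, so p-values for them may measure technical spread only.

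Library totals were 51459900 to 63981100 counts in KO and 44152600 to 67630200 in WT spheroids, 48068700 to 88869300 in KO and 49536700 to 103353000 in WT crypts, and 37281800 to 43876600 in shFgfr1op and 37989200 to 50965000 in scramble cells. Levels are in CPM, read counts scaled to a common library total. Epithelial markers were abundant in every library, and in spheroids summed leukocyte markers were at 21.1 to 44.5 CPM in KO, against 21.98 to 47.4 CPM in WT. Fgfr1op was at 14.99 to 19.8 CPM in KO spheroids, against 21.7 to 24.4 CPM in WT spheroids (adjusted p = 0.117). It was at 11.7 to 25.9 CPM in KO crypts, against 25.2 to 39.0 CPM in WT crypts (adjusted p = 0.0261), and at 6.43 to 7.26 CPM in shFgfr1op cells, against 15.5 to 15.9 CPM in scramble cells (adjusted p = 1.65e-14). Counts over the whole gene cannot show how much of the deleted part was lost. The 3 KO crypt libraries numbered 4, 5 and 6 stood apart from the other 9 crypt libraries on the first principal component, which held 56.0% of the variance, at -124.3 to -101.7 against -5.16 to 64.4. Crypt results are therefore given with and without those 3 libraries. The fit without them kept all 6 WT libraries and fewer KO libraries, so it had less power. It may also compare unequal shares of the days.

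Values are CPM relative to library totals scaled by the trimmed mean of M-values. Log2 fold changes are KO over WT or shFgfr1op over scramble, with their standard error (SE), from edgeR's quasi-likelihood F test, and a gene is called when its p adjusted by Benjamini-Hochberg over all genes of the table is below 0.05. Where levels of different genes are set side by side, they are CPM per kilobase of exon. The length is that of all annotated exons of a gene merged, which can exceed that of any transcript.

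**Figure D1:**
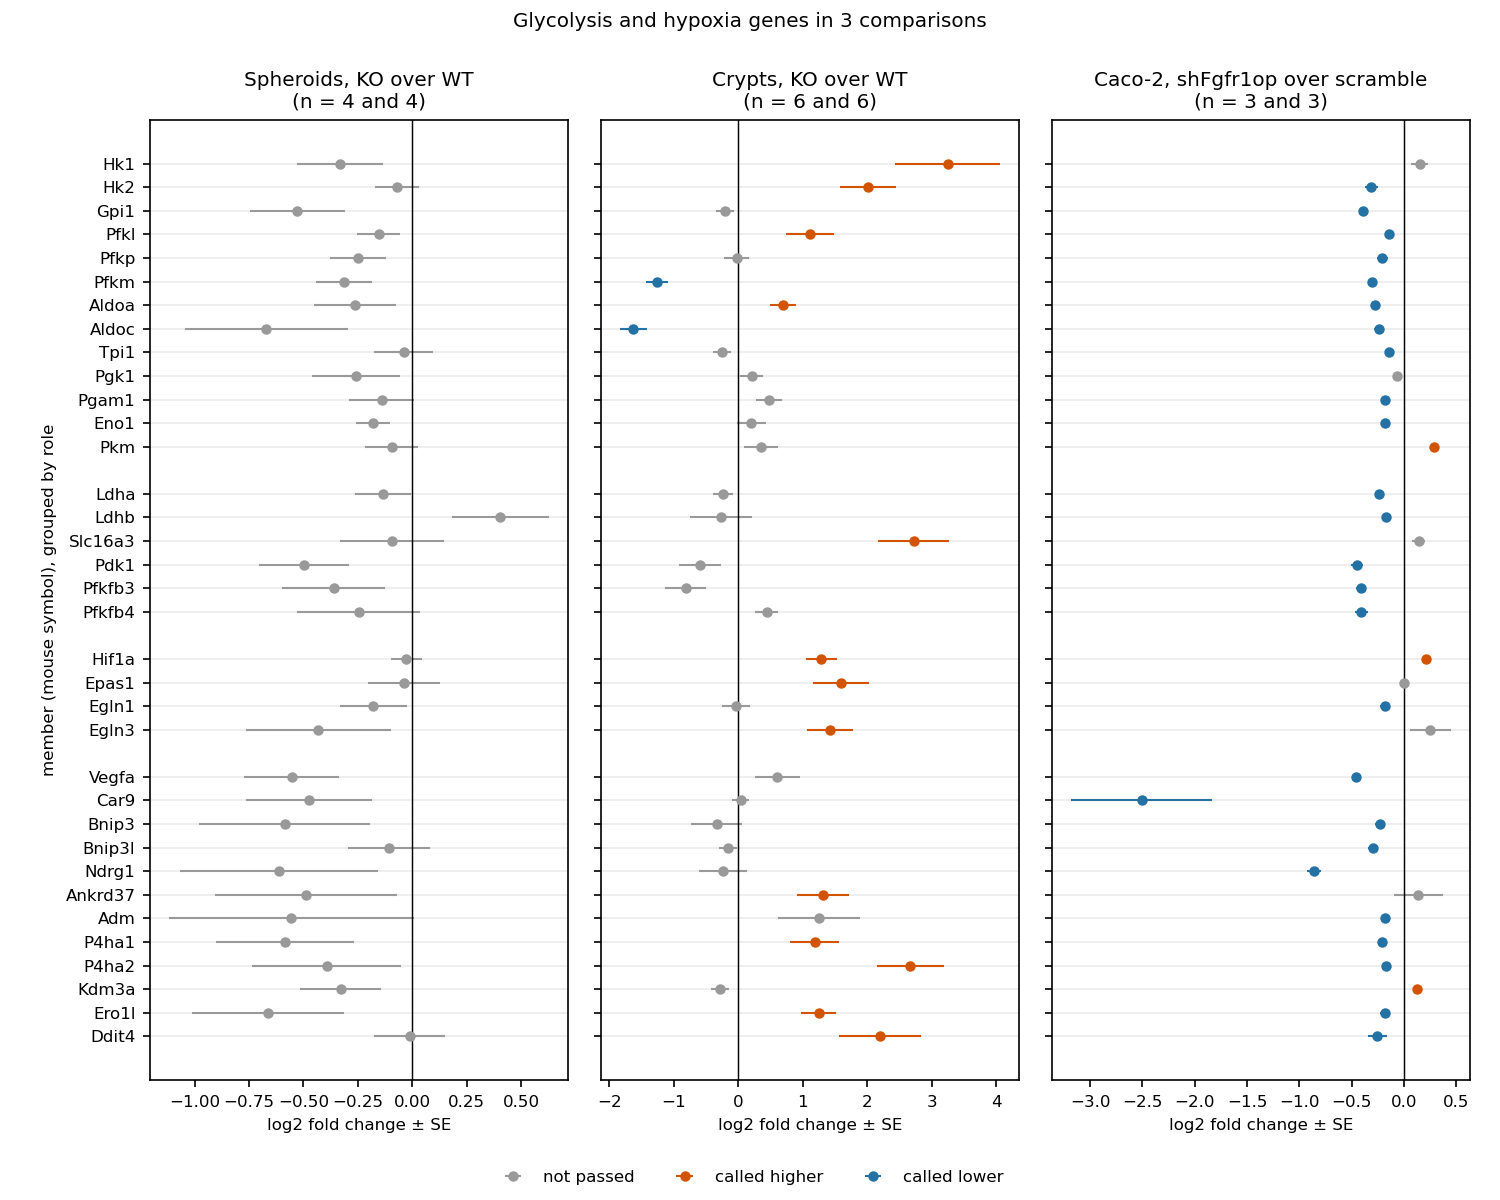
Log2 fold change ± SE of each of the 35 members (rows, by role) in spheroids, crypts and Caco-2 cells, coloured by call; the horizontal scale differs between panels. In spheroids 34 of 35 points lie left of 0 and none was called, in crypts 13 were called higher and 2 lower, and in Caco-2 cells 26 were called lower and 3 higher.

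Mean levels per kilobase ran from 0.92 (Pfkfb4) to 990.5 (Aldoa) in KO spheroids, against 1.10 to 1189 in WT spheroids for the same genes. Per kilobase, the aldolase Aldoa ranked first in spheroids at 990.5 in KO and 1189 in WT, followed by the pyruvate kinase Pkm at 697 in KO and 744 in WT, the lactate dehydrogenase Ldha at 619 in KO and 679 in WT and the phosphoglycerate kinase Pgk1 at 554 in KO and 664 in WT. In crypts Ldha ranked first at 939 in KO and 1109.5 in WT, ahead of Aldoa at 710.2 in KO and 439 in WT and Pkm at 428 in KO and 336 in WT. Per kilobase, every WT spheroid library held more Aldoa than any held Pkm, while Pkm, Ldha and Pgk1 overlapped in level. In plain CPM the mean of Pkm was the higher, at 3487 in KO and 3720 in WT, against 2883 and 3462 for Aldoa. In WT crypts Ldha stood clear of Aldoa, and Aldoa and Pkm overlapped.

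Per kilobase, the order of the phosphofructokinase isoenzymes differed between spheroids and crypts, and that of the hexokinases Hk1 and Hk2 was alike. The hexokinases, which trap glucose as its phosphate, were both well expressed in spheroids, with Hk1 at 21.96 in KO and 27.6 in WT and Hk2 at 35.4 in KO and 37.1 in WT CPM per kilobase. In crypts Hk1 was at 2.89 in KO and 0.304 in WT and Hk2 at 17.4 in KO and 4.31 in WT CPM per kilobase. The platelet-type phosphofructokinase Pfkp was at 41.1 in KO and 41.8 in WT in crypts. The liver-type Pfkl at 18.1 in KO and 8.38 in WT and the muscle-type Pfkm at 2.66 in KO and 6.36 in WT lay below it. In spheroids Pfkl stood first at 68.98 in KO and 76.7 in WT CPM per kilobase. In plain CPM Pfkl and Pfkp overlapped in WT spheroids, at 443 to 553 and 447 to 519. Their separation there rests on the length divisor. Hk1 and Hk2 also overlapped in plain CPM, with means of 236 and 222 in WT spheroids. The lactate dehydrogenase subunit Ldhb, typical of tissues that burn lactate, was at 2.08 in KO and 1.57 in WT CPM per kilobase in spheroids and 0.444 in KO and 0.530 in WT in crypts, a small fraction of Ldha in both. The carbonic anhydrase Car9, a cell-surface enzyme that buffers acid and is best known as a marker of hypoxic tumours, was at 73.3 in KO and 71.5 in WT CPM per kilobase in crypts and 47.3 in KO and 65.7 in WT in spheroids. Spheroids and crypts were counted in separate tables, so these levels are set side by side without a test.

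**Figure D2:**
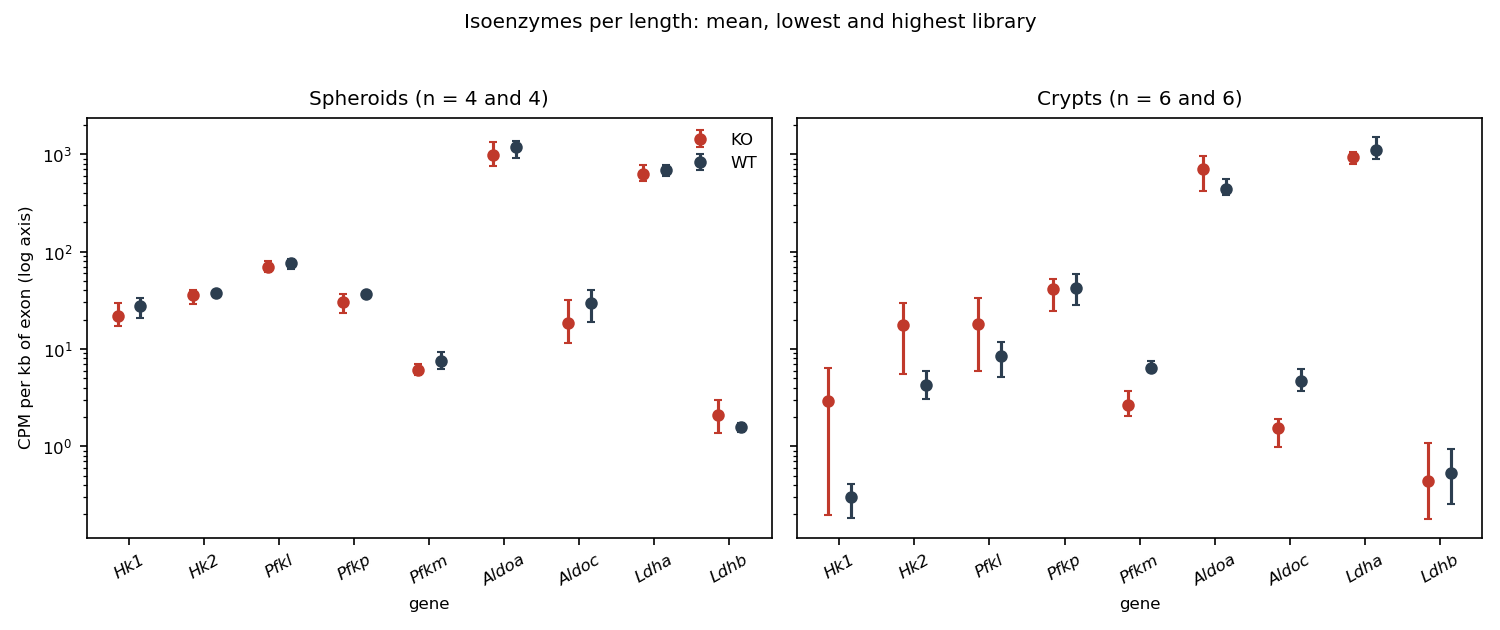
CPM per kilobase of exon (log axis) of 9 isoenzymes in spheroids (left) and crypts (right), KO left of WT for each gene; points are means and bars run from the lowest to the highest library. Hk1 in crypts shows the widest KO range, and Aldoc and Pfkm in crypts show KO below WT with no overlap.

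In spheroids the question was whether loss of Fgfr1op in cultured epithelium moved these genes within 3 days. None of the 35 members was called by edgeR, in a comparison in which 0.232% of all genes tested were called, 0.189% higher and 0.044% lower, and DESeq2 also called 0. Of the members, 34 of 35 had a log2 fold change below 0, with a median of -0.26, while 50.4% of all genes tested were below 0, with a median of -0.002. Members with an unadjusted p below 0.05 numbered 5 of 35, beside 14.6% of all genes tested. No member separated the KO libraries from the WT libraries, where 4.55% of all genes tested had every KO library higher and 4.02% every KO library lower. Members of one pathway vary together within a library, so the 34 are not independent measurements.

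The median log2 fold change of the glycolytic enzymes was -0.25. Gpi1, the glucose-6-phosphate isomerase, was at 947, 519, 804 and 567 CPM in KO, against 1248, 1183, 815 and 846 CPM in WT (-0.53 ± 0.22, adjusted p = 0.317). Its lowest values were in KO libraries 2 and 4, and KO library 1 lay among the WT values. Eno1, the main enolase, was at 2323, 1979.6, 2088 and 1902 CPM in KO, against 2424, 2439, 2209 and 2331 CPM in WT (-0.18 ± 0.08, adjusted p = 0.326). In both enzymes KO library 1 reached into the WT range. Pfkm, a subunit of the phosphofructokinase that catalyses the committed step, was at 23.1, 18.1, 21.4 and 18.3 CPM in KO, against 30.7, 25.9, 20.7 and 23.5 CPM in WT (-0.31 ± 0.13, adjusted p = 0.304). Pfkp, another such subunit, was at 496, 309.8, 452 and 386 CPM in KO, against 509.8, 519, 447 and 476 CPM in WT (-0.25 ± 0.13, adjusted p = 0.407). KO libraries 1 and 3 lay within the WT range for both subunits. Among the enzymes with larger p, Aldoc averaged 60.9 ± 30.2 CPM across KO, against 97.03 ± 32.3 CPM across WT, Aldoa 2883 ± 749.6 CPM across KO, against 3462 ± 627 CPM across WT, Hk2 211 ± 28.5 CPM across KO, against 222 ± 16.5 CPM across WT and Pkm 3487 ± 533 CPM across KO, against 3720.5 ± 468 CPM across WT (SD, n = 4 for each mean), with log2 fold changes of -0.67, -0.26, -0.07 and -0.09.

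Among the genes that steer pyruvate, Pdk1, a kinase that shuts pyruvate dehydrogenase and so diverts pyruvate from mitochondria, was at 232, 115, 163 and 132 CPM in KO, against 240.0, 263, 191 and 213 CPM in WT (-0.50 ± 0.21, adjusted p = 0.321). KO library 2 was again the lowest and KO library 1 overlapped WT. Ldhb was the only member with a log2 fold change above 0, at 3.06, 4.65, 2.15 and 3.19 CPM in KO, against 2.47, 2.73, 2.21 and 2.47 CPM in WT (0.41 ± 0.22, adjusted p = 0.428). Hif1a, the oxygen-labile alpha subunit, was at 75.2, 87.4, 72.3 and 82.4 CPM in KO, against 76.4, 80.9, 83.5 and 82.3 CPM in WT (-0.03 ± 0.07, adjusted p = 0.893). Its KO values spanned a wider band than, and enclosed, its WT values. Ldha averaged 2048 ± 360.3 CPM across KO, against 2247 ± 292 CPM across WT, the lactate exporter Slc16a3 197 ± 67.5 CPM across KO, against 210.2 ± 39.9 CPM across WT, and the phosphofructo-2-kinases Pfkfb3 and Pfkfb4 100.2 ± 35.1 CPM across KO, against 129 ± 22.1 CPM across WT and 4.48 ± 0.514 CPM across KO, against 5.35 ± 2.70 CPM across WT. Egln3, a hydroxylase that HIF induces, averaged 293 ± 134 CPM across KO, against 395 ± 95.9 CPM across WT (-0.43 on the log2 scale). For these genes the libraries of the genotypes overlapped.

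HIF target genes had the most negative median of the role groups, -0.52, and ranged from -0.66 to -0.01. Vegfa, the main angiogenic growth factor of the response, had the smallest p of the members and was at 188, 85.6, 175 and 127 CPM in KO, against 188, 226, 219 and 211 CPM in WT (-0.55 ± 0.22, adjusted p = 0.304). KO libraries 2, 3 and 4 lay below every WT library, and KO library 1 was level with the lowest of them. Ero1l, an oxidase that drives disulfide formation in the endoplasmic reticulum, averaged 1006 ± 519 CPM across KO, against 1593 ± 314 CPM across WT (SD, n = 4 for each mean; -0.66 ± 0.35, adjusted p = 0.426). Ndrg1, a stress-induced gene, averaged 267 ± 173 CPM across KO, against 408 ± 120.2 CPM across WT (-0.61 ± 0.45, adjusted p = 0.577), and the SD within KO exceeded the difference between the means. P4ha2, a collagen prolyl hydroxylase subunit, averaged 29.8 ± 15.9 CPM across KO, against 39.2 ± 8.59 CPM across WT and Kdm3a, a histone demethylase, 56.9 ± 15.6 CPM across KO, against 71.5 ± 11.4 CPM across WT, with log2 fold changes of -0.39 and -0.33. Ddit4, an inhibitor of mTORC1 signalling, had a log2 fold change of -0.01.

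The spread ran along whole libraries. Relative to the WT mean, the median member stood at log2 0.18, -0.64, -0.24 and -0.49 in KO libraries 1 to 4 and at 0.12, 0.22, -0.28 and -0.10 in WT libraries 1 to 4. KO library 1 was the highest KO library for 32 of 35 members and KO library 2 the lowest for 26, while WT library 3 was the lowest WT library for 30. Leaving out KO library 1 moved the members' median to -0.44, with 0 members called. The mitochondrially encoded share of counts was 0.277 to 0.649% in KO, against 0.688 to 0.802% in WT, and summed epithelial markers were at 14521 to 17235 CPM in KO, against 12384 to 14071 CPM in WT. The part of either in the members' values was not tested.

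**Figure D3:**
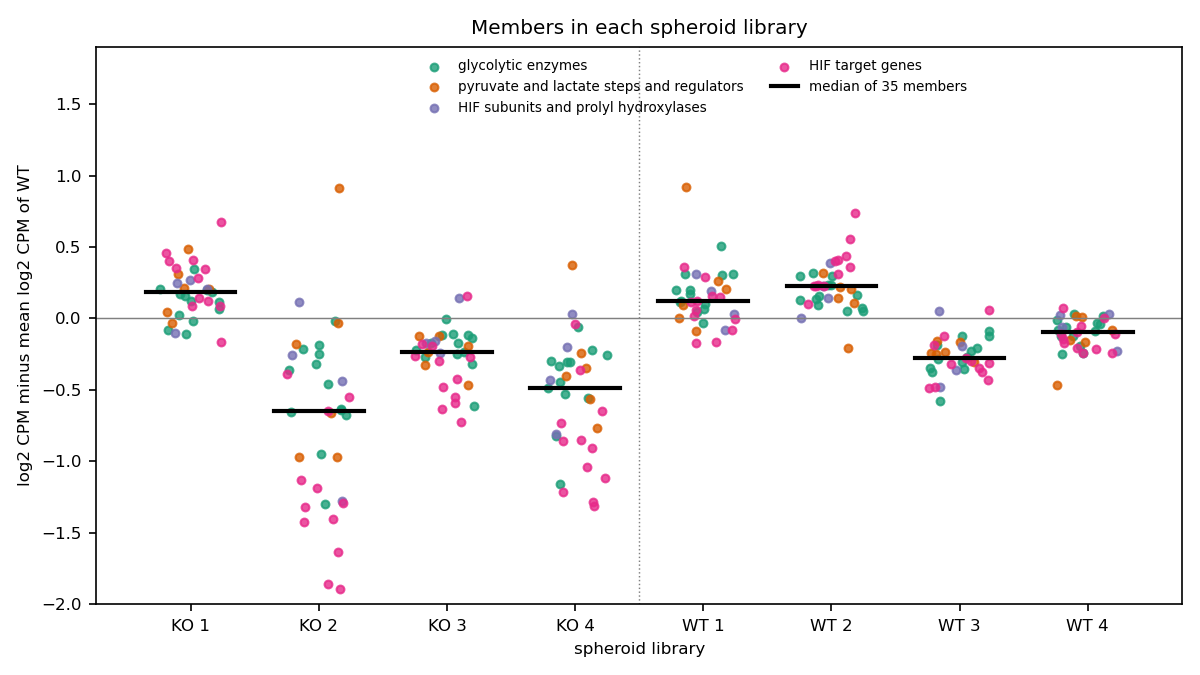
Log2 CPM of each member minus its mean in WT, in each spheroid library (KO left, WT right), coloured by role, with the median of the 35 members as a bar. KO library 1 sits at 0.18, among the WT medians of -0.28 to 0.22, while KO library 2 sits lowest at -0.64.

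Outside the members, 25 other glycolysis genes were tested in spheroids and 1 was called. Eno2, the neuronal enolase, averaged 6.73 ± 5.82 CPM across KO, against 0.126 ± 0.0787 CPM across WT (SD, n = 4 for each mean; 5.66 ± 0.81, adjusted p = 0.0438), with 4 to 17 counts per WT library. Gapdh, the dehydrogenase in the middle of the pathway, averaged 3135 ± 583 CPM across KO, against 4306 ± 491 CPM across WT (-0.46 ± 0.13, adjusted p = 0.169) and did not pass. The lactate transporter Slc16a1 was at 146 to 189.7 CPM in KO, against 192 to 218 CPM in WT (-0.29 ± 0.08, adjusted p = 0.171), without overlap and also without passing. None of 28 other hypoxia pathway genes, 15 citric acid cycle genes or 7 pentose phosphate genes was called. Arnt2, a partner of the HIF alpha subunits, had a log2 fold change of 0.82 ± 0.19, adjusted p = 0.123; Plin2, which coats lipid droplets, of 0.33 ± 0.08, adjusted p = 0.133; and Elob, a subunit of the ligase that destroys HIF, of 0.18 ± 0.06, adjusted p = 0.224. Of the citric acid cycle genes, the succinyl-CoA ligase subunit Suclg2 and the isocitrate dehydrogenase subunit Idh3b were at -0.21 and -0.23 on the log2 scale, and the pentose phosphate genes of smallest p, Rpe, Tkt and Pgls, at -0.13, -0.20 and -0.13.

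In crypts, which were taken from the mice and not cultured, 13 of 35 members rose in KO and 2 fell. In bulk RNA fewer cells of a type and less RNA per cell cannot be told apart. Of all genes tested 24.5% were called, 14% higher and 10.5% lower. The risen members were the hexokinases Hk1 and Hk2, Pfkl, Aldoa, the lactate exporter Slc16a3, both HIF alpha subunits Hif1a and Epas1, the prolyl hydroxylase Egln3, and the target genes Ankrd37, P4ha1, P4ha2, Ero1l and Ddit4. The fallen ones were Pfkm and the brain-type aldolase Aldoc. The members' median log2 fold change was 0.35, beside 0.05 over all genes tested. Without KO libraries 4, 5 and 6, an alternative chosen after seeing the data, 1 member was called higher (Slc16a3) and 3 lower (Pfkm, Aldoc and Bnip3), where 5.46% of all genes tested were called, 2.72% higher and 2.74% lower, and the members' median was 0.13. Leaving out single libraries also moved the count, to 8 higher without KO library 5, KO library 6 or WT library 5, with Pfkm and Aldoc called lower in each such fit. The share of all genes called in those fits was not counted.

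The promoters of 4 of the 6 risen members described by library, Hif1a, P4ha2, Hk2 and Egln3, are shown because each was called higher in KO and HIF is known to bind a short core, ACGTG or GCGTG. None of the 4 was called without KO libraries 4, 5 and 6, and the ranking of the KO libraries differed between them. Each is the 250 bases before a RefSeq start in GRCm38.p6 with no annotated exon in it, and the windows of Slc16a3 and Ero1l held annotated exons. Capitals mark the core on either strand, which on the printed strand also reads CACGT or CACGC.
Hif1a: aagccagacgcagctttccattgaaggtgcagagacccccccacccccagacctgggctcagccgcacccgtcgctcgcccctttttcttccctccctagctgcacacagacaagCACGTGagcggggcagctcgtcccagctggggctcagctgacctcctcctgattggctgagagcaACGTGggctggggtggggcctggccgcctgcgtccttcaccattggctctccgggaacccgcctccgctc
P4ha2: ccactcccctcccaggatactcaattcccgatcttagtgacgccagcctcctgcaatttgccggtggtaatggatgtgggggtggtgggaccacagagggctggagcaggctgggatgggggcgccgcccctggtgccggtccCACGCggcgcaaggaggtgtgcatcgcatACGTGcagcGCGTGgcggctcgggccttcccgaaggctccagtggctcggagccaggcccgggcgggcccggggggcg
Hk2: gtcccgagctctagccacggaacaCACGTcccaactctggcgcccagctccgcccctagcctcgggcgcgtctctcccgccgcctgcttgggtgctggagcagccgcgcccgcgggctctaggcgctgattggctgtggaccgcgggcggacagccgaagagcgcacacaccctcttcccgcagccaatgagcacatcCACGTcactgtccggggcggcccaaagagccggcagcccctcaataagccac
Egln3: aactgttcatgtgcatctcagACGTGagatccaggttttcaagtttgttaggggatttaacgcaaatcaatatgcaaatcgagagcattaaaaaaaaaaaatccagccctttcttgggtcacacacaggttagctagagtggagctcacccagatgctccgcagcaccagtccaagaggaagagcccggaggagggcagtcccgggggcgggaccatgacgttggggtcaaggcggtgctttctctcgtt

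The Hif1a window is chr12:73907617-73907866, plus strand, and that of P4ha2 is chr11:54100674-54100923, plus strand. Both lie inside the GENCODE gene, before an inner start and outside its exons. The Hk2 window is chr6:82774455-82774704, minus strand, and that of Egln3 is chr12:54203875-54204124, minus strand. Hif1a held 3 matches, of which the pair 135 and 134 bases before the start overlap in one palindrome, read on both strands, and the third is 70 bases before it. P4ha2 held 3 matches, at 107, 78 and 69 bases, Hk2 held 2, at 226 and 52 bases, and Egln3 held 1, at 229 bases. Of the 32 members with a RefSeq start listed, 30 held the core in at least 1 window of that length, or 93.8%, beside 41.5% of 27025 genes. The members' windows had a median GC content of 61%, against 52.4% over all genes. Counted by window, the core was in 79.2% of 48 windows of members, beside 38.6% of 32851 windows of all genes. The match is of letters only. The 30 include members that were not called and both members called lower in crypts, Pfkm and Aldoc. Ldha and Bnip3, not called with all crypt libraries, each held 5 matches in 1 window, some of them overlapping. The members were listed in part as known HIF targets, so their share is a description only.

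Both falling enzymes separated the genotypes completely. Pfkm was at 6.82 to 12.3 CPM in KO (median 8.10), against 19.2 to 24.97 CPM in WT (median 20.99) (-1.26 ± 0.16, adjusted p = 0.00118). Aldoc was at 3.25 to 6.22 CPM in KO (median 5.09), against 12.1 to 20.1 CPM in WT (median 14.4) (-1.62 ± 0.21, adjusted p = 0.00109). Every KO library lay below every WT library for both genes. Without KO libraries 4, 5 and 6 the log2 fold change was -1.02 (adjusted p = 0.00943) for Pfkm and -1.35 (adjusted p = 0.00541) for Aldoc. Members whose libraries were all lower without overlap numbered 2 of 35, beside 5.71% of all genes tested, and those all higher numbered 2, beside 4.9%.

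Among the 13 glycolytic enzymes the hexokinases Hk1 and Hk2 rose most. The hexokinase-like Hkdc1, not a member, averaged 212 ± 60.8 CPM across KO, against 313 ± 89.3 CPM across WT (SD, n = 6 for each mean). Its log2 fold change was -0.57 ± 0.22, adjusted p = 0.0737, and did not pass. Its mean lay above those of Hk1 and Hk2 in both groups. Hk2, the inducible isoform bound to mitochondria, was at 33.04 to 175 CPM in KO (median 104), against 18.4 to 35.5 CPM in WT (median 23.4) (2.02 ± 0.43, adjusted p = 0.00749). KO libraries 4, 5 and 6 held 165, 175 and 157 CPM and KO libraries 1, 2 and 3 held 43.3, 49.6 and 33.04 CPM, of which library 3 lay in the WT range. Hk1 had the largest log2 fold change of the members, 3.24 ± 0.81, adjusted p = 0.0148, with 32.6, 50.6 and 54.6 CPM in KO libraries 4, 5 and 6 and 3.14, 5.27 and 1.67 CPM in KO libraries 1, 2 and 3, against 1.57 to 3.47 CPM in WT. Without the 3 libraries the log2 fold change was 0.71 (adjusted p = 0.0719) for Hk2 and 0.37 (adjusted p = 0.555) for Hk1. Pfkl rose by 1.11 and Aldoa by 0.69 on the log2 scale, and without the 3 libraries stood at 0.16 (adjusted p = 0.771) and 0.22 (adjusted p = 0.495). The other 7 glycolytic enzymes did not pass, with log2 fold changes between -0.25 for Tpi1 and 0.47 for Pgam1. Gpi1 averaged 452 ± 61.3 CPM across KO, against 522 ± 87.1 CPM across WT, Pfkp 551 ± 128 CPM across KO, against 559.7 ± 140.2 CPM across WT, Eno1 1779.7 ± 605 CPM across KO, against 1547 ± 371 CPM across WT and Pkm 2141 ± 941 CPM across KO, against 1680.0 ± 271 CPM across WT (SD, n = 6 for each mean), all with overlapping libraries.

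Of the pyruvate and lactate genes, Slc16a3, the transporter through which glycolytic cells export lactate, rose alone. It was at 3.30 to 34.02 CPM in KO (median 9.22), against 1.39 to 2.44 CPM in WT (median 1.88) (2.72 ± 0.55, adjusted p = 0.00587), and every KO library lay above every WT library. Without KO libraries 4, 5 and 6 it was still called, at 1.09 (adjusted p = 0.029). Ldha, Ldhb, Pdk1, the phosphofructo-2-kinase Pfkfb3 and its relative Pfkfb4, which set the level of an activator of phosphofructokinase, were at -0.24, -0.27, -0.59, -0.82 and 0.44 on the log2 scale and did not pass. Ldha averaged 3108 ± 379 CPM across KO, against 3672 ± 811 CPM across WT, Pdk1 8.01 ± 4.71 CPM across KO, against 12.1 ± 2.22 CPM across WT, Pfkfb3 20.1 ± 4.27 CPM across KO, against 35.3 ± 15.9 CPM across WT and Pfkfb4 118 ± 31.6 CPM across KO, against 87.2 ± 12.5 CPM across WT (SD, n = 6 for each mean).

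Of the 4 HIF subunits and hydroxylases, 3 rose. Hif1a, whose window held 3 matches to the core, was at 22.5 to 57.8 CPM in KO (median 50.5), against 14.03 to 22.7 CPM in WT (median 17.2) (1.29 ± 0.25, adjusted p = 0.00383). Its 6 KO libraries held 49.6, 23.3, 22.5, 57.8, 57.1 and 51.4 CPM in order of number, so library 1 stood with libraries 4, 5 and 6, and the lowest KO library lay just under the highest WT library. Epas1, the alpha subunit HIF-2alpha, rose by 1.59 on the log2 scale, and Egln3 was at 1.76 to 6.89 CPM in KO (median 5.70), against 1.04 to 2.46 CPM in WT (median 1.79) (1.42 ± 0.36, adjusted p = 0.0128), with KO libraries 2 and 3 inside the WT range. Egln1, the main oxygen-sensing hydroxylase, was at -0.04 and did not pass. Without the 3 libraries none of them passed, at 0.84 (adjusted p = 0.0562) for Hif1a, 0.33 (adjusted p = 0.551) for Epas1 and 0.90 (adjusted p = 0.173) for Egln3.

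Of the 12 target genes, 5 rose and none fell. P4ha2, which also held 3 matches, was at 0.975 to 11.3 CPM in KO (median 5.99), against 0.753 to 1.15 CPM in WT (median 1.03) (2.66 ± 0.52, adjusted p = 0.00475), with KO library 1 inside the WT range. Ero1l was at 9.96 to 31.3 CPM in KO (median 17.03), against 4.49 to 9.51 CPM in WT (median 7.81) (1.24 ± 0.28, adjusted p = 0.00728), without overlap. P4ha1, the sister subunit, rose by 1.19, the ankyrin repeat gene Ankrd37 by 1.31 and Ddit4 by 2.19 on the log2 scale. Without the 3 libraries P4ha2 was at 1.11 (adjusted p = 0.0552), Ero1l at 0.88 (adjusted p = 0.0743), P4ha1 at 0.11 (adjusted p = 0.837), Ankrd37 at 0.15 (adjusted p = 0.793) and Ddit4 at 0.71 (adjusted p = 0.465), and none of the 5 was called. The classic markers did not pass. Vegfa averaged 2.75 ± 1.47 CPM across KO, against 1.81 ± 0.642 CPM across WT and Kdm3a 25.8 ± 4.04 CPM across KO, against 31.3 ± 4.28 CPM across WT (SD, n = 6 for each mean). Log2 fold changes were 0.60 for Vegfa, 0.04 for Car9, 1.25 for the vasodilator peptide Adm, -0.33 and -0.16 for the mitophagy receptors Bnip3 and Bnip3l, -0.24 for Ndrg1 and -0.28 for Kdm3a. Bnip3 was called lower without the 3 libraries, at -1.29 (adjusted p = 0.025).

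**Figure D4:**
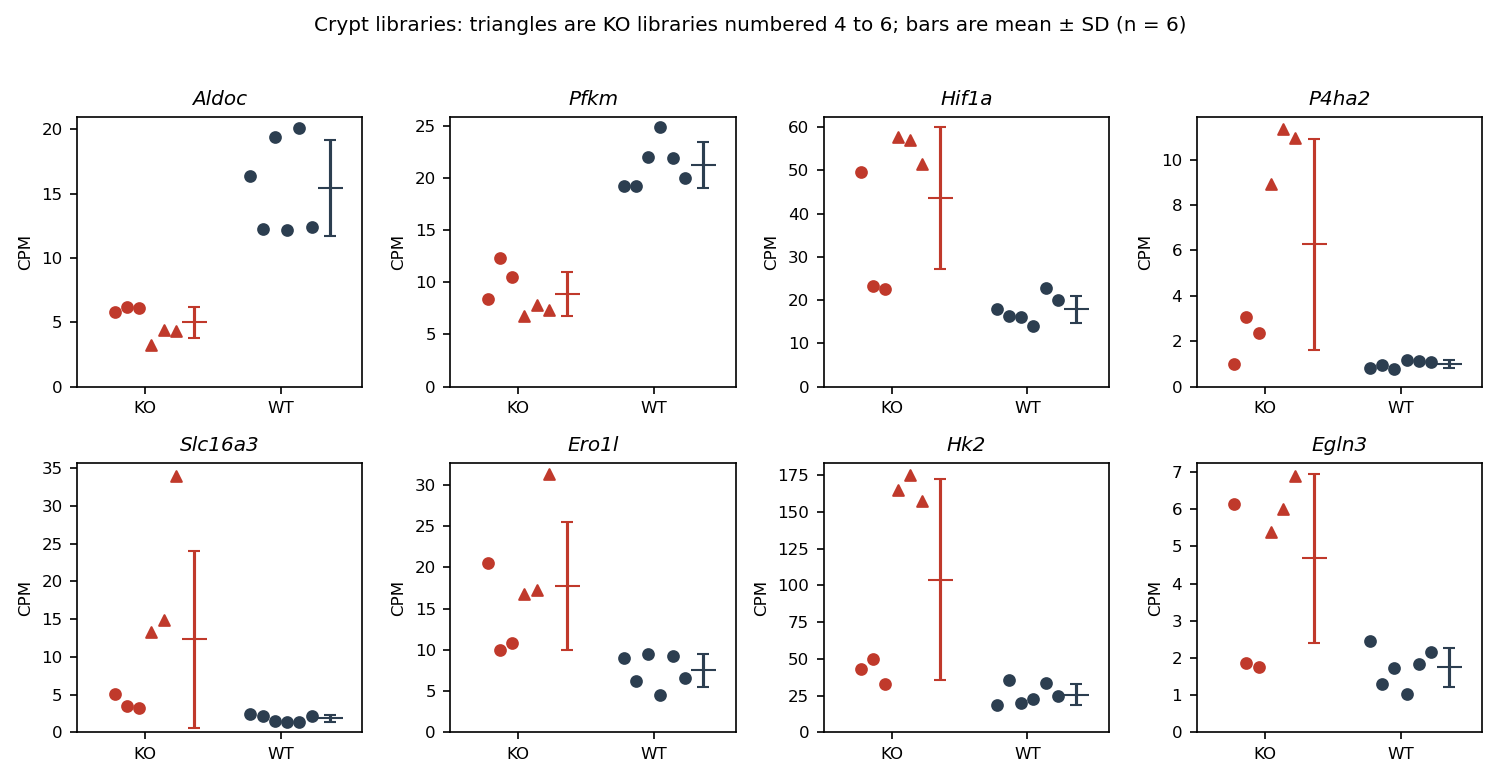
CPM of 8 members in each crypt library, KO left of WT in each panel, with triangles for KO libraries 4 to 6 and bars for mean ± SD (n = 6 each). Aldoc and Pfkm show all KO libraries below all WT libraries, and Hk2 and P4ha2 show the triangles above the other KO libraries.

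KO libraries 4, 5 and 6 were the 3 highest KO libraries for 11 of the 13 members called higher and lay above every WT library for 13 of 13. Of all 2290 genes called higher, they were the 3 highest KO libraries for 52.4% and lay above every WT library for 93.1%. Over all 35 members they were the 3 highest KO libraries for 20 and the 3 lowest for 3, where the shares of all genes tested were 19% and 21.9%. Members called higher were in part selected by these libraries, so the counts over them are a description. Summed enterocyte markers in them were at 3292 to 6919 CPM, against 16145 to 31219 CPM in the other KO libraries and 14530 to 36175 CPM in WT. Summed stem cell markers were at 114 to 147 CPM in those 3, at 667 to 1101 CPM in the other KO libraries and at 974 to 2252 CPM in WT, and Paneth cell markers at 5756 to 9283 CPM in those 3, at 29704 to 39670 CPM in the other KO libraries and at 25476 to 63379 CPM in WT. General epithelial markers were at 20076 to 23482 CPM in those 3, at 11512 to 11948 CPM in the other KO libraries and at 6324 to 12599 CPM in WT. Leukocyte markers summed to 126 to 236 CPM in those 3, 197 to 315 CPM in the other KO libraries and 258 to 498 CPM in WT. Fibroblast and smooth muscle markers summed to 9.83 to 54.8 CPM in those 3, 2.65 to 7.34 CPM in the other KO libraries and 4.63 to 43.99 CPM in WT, and red cell markers to 8.45 to 26.6, 0.73 to 3.35 and 1.36 to 12.98 CPM in those 3, the other KO libraries and WT. No list had a marker at 0 in all crypt libraries. With all crypt libraries fitted, 2 of 10 enterocyte markers and 3 of 5 tuft cell markers tested were called lower. Of the general epithelial markers 3 of 6 were called higher, and of the goblet cell markers 1 of 7. Of 10 leukocyte markers 1 was called higher and 1 lower. No enteroendocrine, fibroblast and smooth muscle, endothelium or red cell marker was called. Called stem cell markers numbered 0 of 8 and called Paneth cell markers 0 of 6. Of all genes tested 10.5% were called lower and 14% higher. A sum follows its most abundant genes. The part of cell makeup in the members' values was not tested. Whether the 3 libraries belong to one day cannot be read from the columns. The further number in the column names, of unstated meaning, was higher in those 3 than in the other KO libraries. The running number could be cut into equal groups in both genotypes, and the further number could not. No label ties either number to a day.

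Of 28 other genes of glycolysis tested in crypts, 1 rose and 8 fell, and without KO libraries 4, 5 and 6 the calls were 1 higher and 4 lower of 27. The glucose transporter Slc2a1 rose, at 29.5 to 285 CPM in KO, against 16.6 to 27.9 CPM in WT (2.58 ± 0.56, adjusted p = 0.00776), and without the 3 libraries was at 0.74 (adjusted p = 0.0449). The muscle enolase Eno3 fell by 1.55, the muscle phosphoglycerate mutase Pgam2 by 1.42 and Dld, a subunit of the pyruvate dehydrogenase complex, by 0.67 on the log2 scale, and without the 3 libraries they were at -1.14 (adjusted p = 0.011), -1.12 (adjusted p = 0.042) and -0.54 (adjusted p = 0.0939). Of 15 citric acid cycle genes 12 fell, led by the succinate dehydrogenase subunit Sdha at 637 to 1050.0 CPM in KO, against 1323 to 1920.3 CPM in WT (-0.92 ± 0.17, adjusted p = 0.00299), with Idh3b at -0.59. Without the 3 libraries 1 of the 15 was called lower, Sdha at -0.73 (adjusted p = 0.0461). Of 7 pentose phosphate genes, which supply NADPH from glucose-6-phosphate, 2 rose, G6pdx by 1.06 and Pgd by 0.77, with Pgls at 0.44 not passing, and none was called without the 3 libraries. Of 24 other hypoxia pathway genes 9 rose and 2 fell: Arnt2 was at 1.98 to 8.11 CPM in KO, against 0.449 to 1.19 CPM in WT (2.45 ± 0.40, adjusted p = 0.00204), while Plin2 and the transferrin receptor Tfrc were at -0.90 and -0.75. Without the 3 libraries 2 of the 24 were called higher and 1 lower, with Arnt2 at 1.51 (adjusted p = 0.0161) and Plin2 at -0.88 (adjusted p = 0.0186).

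In Caco-2 cells the members moved downward by small amounts. After the hairpin, 26 of 35 members fell and 3 rose, where 31.9% of all genes tested were called, 16.2% lower and 15.7% higher. The members' median log2 fold change was -0.18, beside -0.005 over all genes tested. The fallen members comprised 10 of 13 glycolytic enzymes, 5 of 6 pyruvate and lactate genes, 1 of 4 HIF subunits and hydroxylases, and 10 of 12 target genes. PKM, HIF1A and KDM3A rose. The libraries of the groups did not overlap for 26 members that were lower, among them PGK1, which was not called, and not DDIT4, which was, beside 21.5% of all genes tested, and for 3 that were higher, beside 20.8%.

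Among the enzymes, GPI was at 434, 438 and 428 CPM in shFgfr1op, against 562, 565 and 575 CPM in scramble (-0.39 ± 0.03, adjusted p = 4.06e-15). ALDOA, which splits fructose bisphosphate, was at 1419, 1459 and 1404 CPM in shFgfr1op, against 1724, 1700.0 and 1759 CPM in scramble (-0.28 ± 0.03, adjusted p = 1.84e-11). PFKM was at 74.5, 76.3 and 72.02 CPM in shFgfr1op, against 96.2, 90.9 and 87.9 CPM in scramble (-0.30 ± 0.04, adjusted p = 1.23e-07). For these enzymes every shFgfr1op library lay below every scramble library. The remaining fallen enzymes, HK2, PFKL, PFKP, ALDOC, TPI1, PGAM1 and ENO1, had log2 fold changes of -0.31 to -0.14. PKM, the last enzyme of the pathway, went the other way, at 1298, 1322 and 1239 CPM in shFgfr1op, against 1053, 1042 and 1063 CPM in scramble (0.29 ± 0.03, adjusted p = 1.25e-11). HK2 averaged 29.8 ± 1.51 CPM across shFgfr1op, against 37.04 ± 2.38 CPM across scramble, PFKP 269.7 ± 23.2 CPM across shFgfr1op, against 311 ± 7.46 CPM across scramble, ALDOC 61.4 ± 2.32 CPM across shFgfr1op, against 72.5 ± 2.51 CPM across scramble and ENO1 1075 ± 40.4 CPM across shFgfr1op, against 1217 ± 18.5 CPM across scramble (SD, n = 3 for each mean). HK1 at 0.15 and PGK1 at -0.07 did not pass.

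On the log2 scale the pyruvate, lactate and regulator genes stood at a median fold change of -0.32, beside -0.18 for the enzymes. PDK1 was at 37.2, 32.1 and 31.3 CPM in shFgfr1op, against 45.9, 43.8 and 47.7 CPM in scramble (-0.45 ± 0.06, adjusted p = 4.28e-08). PFKFB3 was at 68.7, 63.7 and 60.4 CPM in shFgfr1op, against 84.4, 84.96 and 87.2 CPM in scramble (-0.41 ± 0.04, adjusted p = 2.48e-10). PFKFB4 was at 28.3, 22.9 and 26.2 CPM in shFgfr1op, against 34.4, 33.5 and 34.7 CPM in scramble (-0.41 ± 0.06, adjusted p = 1.74e-06). LDHA, which forms lactate, was at 688, 679.8 and 651 CPM in shFgfr1op, against 785, 771 and 829 CPM in scramble (-0.24 ± 0.03, adjusted p = 1.02e-08), and LDHB, whose log2 fold change was -0.17, also fell. Every shFgfr1op library lay below every scramble library for these genes, while SLC16A3, averaging 31.9 ± 1.76 CPM across shFgfr1op, against 28.9 ± 1.39 CPM across scramble (0.14), did not pass.

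HIF1A rose, at 175, 178 and 172 CPM in shFgfr1op, against 149.6, 153 and 152 CPM in scramble (0.21 ± 0.03, adjusted p = 2.2e-06), without overlap. EPAS1 had a log2 fold change of 0.004 and EGLN3, averaging 2.54 ± 0.230 CPM across shFgfr1op, against 2.12 ± 0.283 CPM across scramble, of 0.25, neither passing, and EGLN1 fell by 0.18. Most target genes were lower. VEGFA was at 144, 137 and 147 CPM in shFgfr1op, against 208, 196 and 183 CPM in scramble (-0.46 ± 0.04, adjusted p = 6.62e-12), without overlap. NDRG1 averaged 117 ± 12.2 CPM across shFgfr1op, against 212 ± 6.57 CPM across scramble (SD, n = 3 for each mean; -0.86 ± 0.07, adjusted p = 1.07e-05). CA9 had the largest fitted decrease, -2.51 ± 0.67, adjusted p = 0.00281, but rested on 2 to 4 counts per shFgfr1op library and 10 to 23 per scramble library. BNIP3L, DDIT4, BNIP3, P4HA1, ERO1A, ADM and P4HA2 fell by 0.30 to 0.17 on the log2 scale. P4HA2 averaged 86.4 ± 1.01 CPM across shFgfr1op, against 97.4 ± 3.84 CPM across scramble and ERO1A 78.6 ± 4.47 CPM across shFgfr1op, against 89.1 ± 1.92 CPM across scramble. ANKRD37 at 0.13 did not pass. KDM3A rose, at 92.5, 84.9 and 88.8 CPM in shFgfr1op, against 82.7, 82.03 and 79.05 CPM in scramble (0.13 ± 0.04, adjusted p = 0.0144), and was no longer called without shFgfr1op replicate 1 (adjusted p = 0.126) or without scramble replicate 3 (adjusted p = 0.0869).

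**Figure D5:**
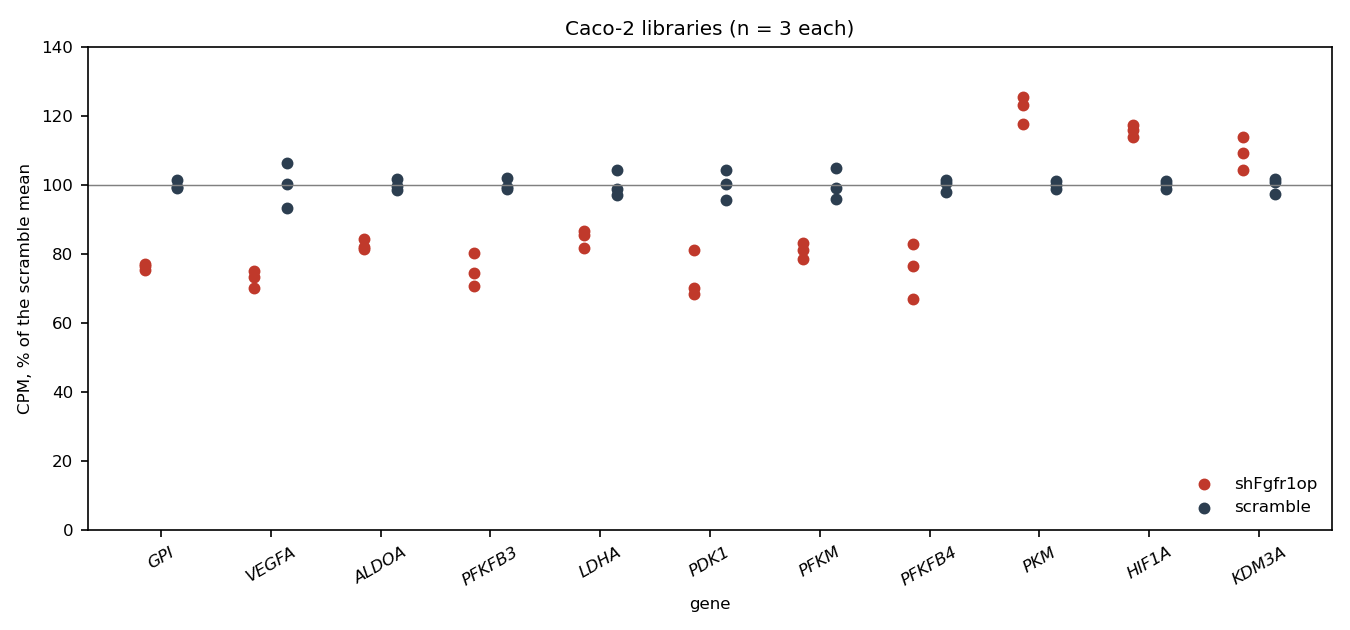
CPM of 11 genes in each Caco-2 library as a percentage of that gene's scramble mean, shFgfr1op left of scramble (n = 3 each). The first 8 genes lie below the scramble libraries and PKM, HIF1A and KDM3A above them, with no overlap.

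Of 26 other glycolysis genes in Caco-2 cells, 5 rose and 8 fell. The neuronal-type glucose transporter SLC2A3 rose, averaging 3582 ± 128 CPM across shFgfr1op, against 2640.4 ± 47.4 CPM across scramble (SD, n = 3 for each mean; 0.44 ± 0.03, adjusted p = 9.67e-18), while the hexokinase-like HKDC1 averaged 39.3 ± 1.99 CPM across shFgfr1op, against 74.7 ± 1.57 CPM across scramble (-0.93 ± 0.05, adjusted p = 2.15e-20) and the pyruvate dehydrogenase subunit PDHA1 fell by 0.41. Of 15 citric acid cycle genes 11 fell and 1 rose, led by the succinyl-CoA ligase subunit SUCLG1 at 113 ± 0.456 CPM across shFgfr1op, against 203 ± 4.95 CPM across scramble (-0.84 ± 0.03, adjusted p = 4.78e-24), with the succinate dehydrogenase subunit SDHB at -0.32. Of 7 pentose phosphate genes 2 rose and 3 fell, the fallen ones being TKT at -0.29, PGD at -0.31 and PGLS at -0.19. Of 29 other hypoxia pathway genes 5 rose and 12 fell, including CITED2, a HIF-induced inhibitor of HIF, at -0.71, FAM162A at -0.48 and the adenylate kinase AK4 at -0.29. Summed enterocyte markers were at 1487 to 1616 CPM in shFgfr1op, against 2409 to 2446 CPM in scramble, with 7 of 9 tested called lower and 1 higher. Summed stem cell markers were at 331 to 347 CPM in shFgfr1op, against 236 to 241 CPM in scramble, with 6 of 7 called higher. Their part in the members' values was not tested. Named pseudogenes of 13 members are in the human table and held at most 4.76% of the counts of their member (BNIP3).

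Set side by side, 10 members were called in both crypts and Caco-2 cells, which share no samples: 10 of the 15 called in crypts and 10 of the 29 called in Caco-2 cells. With 29 of 35 members called in Caco-2 cells, most crypt calls would be shared without any relation between the lists, so the count is a description only. Of these 10, 7 went opposite ways, higher in crypts and lower in Caco-2 cells. They were Hk2 at 2.02 and -0.31, Pfkl at 1.11 and -0.14, Aldoa at 0.69 and -0.28, P4ha1 at 1.19 and -0.21, P4ha2 at 2.66 and -0.17, Ero1l at 1.24 and -0.18, and Ddit4 at 2.19 and -0.26 on the log2 scale. Without KO libraries 4, 5 and 6, 0 of those 7 were called in crypts. The 3 that shared a direction were Hif1a, higher at 1.29 and 0.21, Pfkm, lower at -1.26 and -0.30, and Aldoc, lower at -1.62 and -0.24. Pfkm and Aldoc were called in crypts with and without the 3 libraries, and in spheroids had log2 fold changes of -0.31 and -0.67 without passing. Species, mode of loss and time differ between crypts and Caco-2 cells and cannot be told apart from the kind of sample.

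The difference between the KO effects in spheroids and crypts was tested directly, as the interaction of kind of sample and genotype in one fit. It was called for 5 of 35 members, beside 2.86% of all genes tested. The effect in spheroids minus that in crypts was -3.01 ± 0.71, adjusted p = 0.0328 for P4ha2, -2.76 ± 0.71, adjusted p = 0.0451 for Slc16a3, -1.86 ± 0.45, adjusted p = 0.0371 for Ero1l, -1.26 ± 0.32, adjusted p = 0.0401 for Hif1a and 0.99 ± 0.23, adjusted p = 0.0255 for Pfkm. The rise of the first 4 in crypts and the fall of Pfkm there exceeded the values in spheroids. Hk2 at -2.03 ± 0.55, adjusted p = 0.0507 and Hk1 at -3.52 ± 1.00, adjusted p = 0.0625 did not pass. Without KO libraries 4, 5 and 6 of the crypts 0 differences were called. Leaving out single libraries gave 0 to 10, and 19 of 20 such fits moved the count by more than 1.5 times. Shares of all genes called were not counted for these fits or for the fit without the 3 libraries.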

How the data were processed

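The deposited files are 3 tables of read counts per gene, raw as deposited, for spheroids, crypts and Caco-2 cells. The submitters' processing notes name STAR, DESeq2 and mm10, with no role or version, and the sources used here give no human build. Gene identifiers listed more than once were removed (276, 276 and 116 entries). The filterByExpr function of edgeR kept 15915, 16413 and 18905 genes. Each table was fitted alone with edgeR 4.0.16 in R 4.3.3 (TMM scaling, robust quasi-likelihood F test) on group alone, and p-values were adjusted by Benjamini-Hochberg over all genes tested. The SE is the absolute log2 fold change divided by the square root of F. The interaction was fitted on both mouse tables together. The procedure was tested on simulated counts first. No replicate pair agreed within sampling noise (chi-square per degree of freedom of at least 3.98).

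The members and gene lists were chosen with earlier results of these data known. Per comparison, library values are given for the 8 lower and 6 higher called members of smallest p, or for the 6 members of smallest p where fewer were called, and values for the 3 genes of smallest p in each pathway list, apart from 1 gene that is not reported here. Alternatives were DESeq2 1.42.0, limma 3.58.1, other scalings, filters and thresholds, a replicate block and single libraries left out. Promoters come from RefSeq (GRCm38.p6), with 32 of 35 members matched and no entry for Epas1, Bnip3l and Ndrg1. Exon lengths come from the GENCODE annotation.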

Additional observations from a re-analysis of the deposited data

Results flagged for a closer look

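Pfkfb4 stood out in 1 spheroid library, at 9.38 CPM in WT library 1, against 3.57 to 4.27 CPM in the other WT libraries. Its gap to the nearest library was too large a part of the group's range by Dixon's criterion. It was the only such library among 76 groups tested over 19 members. Chance gives about 1 in 20 groups, so this is no more than chance would give. The groups share libraries and are not independent.

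The KO effect differed between spheroids and crypts for 5 members, by the interaction in edgeR. The effect in spheroids minus that in crypts was -3.01 for P4ha2, -2.76 for Slc16a3, -1.86 for Ero1l, -1.26 for Hif1a and 0.99 for Pfkm on the log2 scale. Without crypt KO libraries 4, 5 and 6 it was called for 0 members.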

How the results depend on the processing

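In spheroids 0 members were called under every alternative run, and the members' median log2 fold change was -0.44 to -0.20 when single libraries were left out. In crypts 5 members were called higher at an adjusted p below 0.01. Without KO libraries 4, 5 and 6, an alternative chosen after seeing the data, 1 was called higher, beside 2.72% of all genes tested. Leaving out single crypt libraries gave 8 to 14 members higher, 2 to 3 lower and medians of 0.20 to 0.44. limma, which weighted the libraries by quality, called 19 higher and 3 lower, without a count over all genes. In Caco-2 cells the same fits called 25 to 26 members lower, with medians of -0.21 to -0.17, and library totals without scaling factors moved the median to -0.14. The interaction was called for 0 to 10 members without single libraries and for 0 without the 3 crypt libraries. The cause was not tested. Shares of all genes called were not counted for the alternatives, apart from KO against WT crypts without KO libraries 4, 5 and 6. Member counts under the others are therefore a description only. Each called member chosen for library values by smallest p in crypts or Caco-2 cells was paired with each alternative. Called members of larger p were left out, so these counts hold for the chosen members only. Direction and call were kept in 324 such pairs and the call was lost in 9. In crypts without KO libraries 4, 5 and 6 the call was lost for Hk2, Hif1a, P4ha2, Ero1l and Egln3. Slc16a3, Pfkm and Aldoc kept theirs. Outside the pairs, Hk1, Pfkl, Aldoa, Epas1, Ankrd37, P4ha1 and Ddit4, called higher with all crypt libraries, also lost their calls in that fit. The alternatives share most libraries, so the pairs are not independent. The 6 members named in spheroids, none of them called, kept direction and stayed uncalled in 102 pairs.

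With the replicate block the members' median was -0.28 in spheroids, with 0 called, and -0.18 in Caco-2 cells, with 26 lower and 3 higher. Libraries of the same number correlated at -0.03 to 0.10 in spheroids and 0.003 to 0.04 in Caco-2 cells. The best matching control library bore the same number for shFgfr1op libraries 1 and 2, but not for 3 or for any KO spheroid library. With groups this small, centred within group, the check cannot exclude a shared culture or day. No paired analysis was possible for crypts because the columns carry neither the day nor the labels' numbers, and the fit with day as a term was not run. Depth limits CA9 in Caco-2 cells.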
